A study of Homo sapiens with 30 samples.

Results

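Histone genes encode the proteins around which DNA is wound, and 85 of them were followed here through BET inhibition of Ewing sarcoma cells. They are the protein-coding genes of the deposited count table (33538 genes) whose symbol belongs to the H1, H2A, H2B, H3, H4 or MACROH2A families, 5 of them matched through an older name. Of the 85, 72 were replication-dependent (6 H1, 17 H2A, 19 H2B, 15 H3 and 15 H4 genes) and 13 were variant genes (4 H1, 6 H2A and 3 H3). The membership rule used names only and no measured value.

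Poly(A)-selected RNA was sequenced from 3 cell lines, A673, CHLA10 and TC32, all labelled Ewing sarcoma with the genotype EWS::FLI1, the fusion that drives this tumour. Cells received 5 nM BMS-986158, a BET bromodomain inhibitor, or DMSO vehicle. There were 10 groups of 3 libraries. Exposure lasted 72 hours (the 3-day groups) in each line, and 20 days without a break in A673 and CHLA10, whose treated cells the labels call persister cells. The labels do not say how long the 20-day vehicle cells had received vehicle. CHLA10 grew in IMDM with the ITS-X supplement and the other lines in RPMI1640, so line and medium cannot be told apart. The labels do not state whether the 3 libraries of a group came from different cultures, and the p-values cover only their spread, which may be technical.

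Replication-dependent histone genes stand in clusters, are transcribed in S phase with DNA synthesis, and make mRNAs that usually lack a poly(A) tail: a conserved stem-loop at the 3′ end, bound by SLBP, directs their processing. Variant, or replacement, genes lie outside the clusters, are used throughout the cell cycle and make ordinary polyadenylated mRNAs. Poly(A) selection should therefore capture mainly those replication-dependent transcripts that read past the stem-loop to a poly(A) signal, which is known to happen in cells that leave the cell cycle, and the counts below are those of the captured molecules.

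In GENCODE 29 transcripts, 32 of the 72 replication-dependent genes held a stem-loop of a 6-base stem and a 4-base loop. These 16-base elements are shown because they mark the end that poly(A) selection would miss. Capitals mark the paired stem and lower case the loop, written 5′ to 3′ as RNA.
H2AC6, H2AC25, H2BC21 and 14 other genes: GGCUCUuuucAGAGCC
H2BC4, H2BC5, H2BC7, H3-4 and H3C8: GGCUCUuuuaAGAGCC
H4C2, H4C5, H4C8, H4C11 and H4C16: GGCCCUuuucAGGGCC
H4C9, H4C14 and H4C15: GGCCCUuuuuAGGGCC
H2AC11: GGCUCUuuucAGGGCC
H3C6: GGCUCUucucAGAGCC
H2AX, the only variant gene with the element: GGCCCUuuuaAGGGCC
The form of the 5 H4 genes differs from the most common form only in the stem. The form of the 3 H4 genes differs in stem and loop, and the H2BC5 form only in the loop.

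A transcript reached more than 100 bases past the stem-loop in 23 of the 72 genes. In 22 of the 72, an annotated transcript had the poly(A) signal AATAAA or ATTAAA within its last 40 bases and past any stem-loop. The other 50 had none annotated, and 33 of the 72 genes have models of coding sequence only, in which nothing past the stop codon could be searched. Of the 13 variant genes 12 had such a signal. H2AX had both a stem-loop and a transcript running 1044 bases beyond it.

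The promoters of replication-dependent genes were rich in a few shared motifs. RefSeq promoter windows (GRCh38.p14, 300 bases, from 250 before the start) were matched for 77 of the 85 genes, and motifs were searched on both strands. The genes H2AC7 and H3C4 have the same window, which was counted once, for H2AC7, whose annotated start adjoins it. The TATA box TATAAA stood in 67.7% of 65 replication-dependent windows against 11.6% of all 34943 windows, CCAAT in 84.6% against 34.6%, and the octamer ATTTGCAT in 38.5% against 1.77%. The octamer, a binding site of POU2F1, was in 68.8% of H2A and 77.8% of H2B windows of replication-dependent genes. None of the replication-dependent H1, H3 and H4 windows counted held it, while the window of the variant gene H3-3B did. The H1 box AAACACA was in 6 of 6 replication-dependent and 1 of 3 variant H1 windows, against 5.66% of all windows. None of these motifs contains another, and a match is a description of letters, not of binding.

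The windows of 4 genes that were each called higher in all 3 lines are shown because these genes carry the shared result below. Capitals mark the TATA box, CCAAT and octamer motifs on either strand, and each window is written on its gene's strand.
H2AC6, chr6:26123922-26124221, plus strand: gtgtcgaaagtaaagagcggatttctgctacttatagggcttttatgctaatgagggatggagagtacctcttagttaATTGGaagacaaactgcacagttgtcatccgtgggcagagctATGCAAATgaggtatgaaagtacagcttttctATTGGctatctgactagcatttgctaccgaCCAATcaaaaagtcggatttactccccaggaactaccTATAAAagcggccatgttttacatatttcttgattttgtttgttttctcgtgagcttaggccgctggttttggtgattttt
H2BC5, chr6:26157871-26158170, plus strand: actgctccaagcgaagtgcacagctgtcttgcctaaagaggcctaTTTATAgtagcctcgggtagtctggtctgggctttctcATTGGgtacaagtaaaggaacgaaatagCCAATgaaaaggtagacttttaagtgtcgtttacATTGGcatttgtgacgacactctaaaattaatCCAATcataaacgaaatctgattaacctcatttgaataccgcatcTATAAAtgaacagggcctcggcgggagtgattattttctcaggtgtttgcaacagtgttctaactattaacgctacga
H2BC21, chr1:149886633-149886932, minus strand: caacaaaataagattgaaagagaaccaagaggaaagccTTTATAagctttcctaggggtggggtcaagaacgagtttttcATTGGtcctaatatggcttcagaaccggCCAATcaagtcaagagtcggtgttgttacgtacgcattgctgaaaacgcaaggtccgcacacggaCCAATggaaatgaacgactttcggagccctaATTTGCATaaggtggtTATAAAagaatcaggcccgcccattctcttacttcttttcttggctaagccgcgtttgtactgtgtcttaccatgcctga
H2AC25, chr1:228457824-228458123, minus strand: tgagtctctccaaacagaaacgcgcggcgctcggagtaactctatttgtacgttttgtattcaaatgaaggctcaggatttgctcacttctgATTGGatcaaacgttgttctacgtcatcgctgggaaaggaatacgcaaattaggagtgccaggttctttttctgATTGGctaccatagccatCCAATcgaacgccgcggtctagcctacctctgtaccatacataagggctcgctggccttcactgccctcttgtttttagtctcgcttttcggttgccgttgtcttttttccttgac
Each window held 3 or 4 CCAAT motifs. H2AC6 and H2BC21 held the octamer once and H2BC5 and H2AC25 did not, and H2AC25 had no TATA box either.

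Library totals ran from 16.1 M to 48.9 M counts. All 10 Ewing sarcoma markers examined (among them CD99 and NKX2-2) averaged above 1 CPM (the library-scaled count with TMM factors), summing to 2470 to 7520 CPM per library. None of 12 markers of other cell types did, their sum running from 0.159 to 7.78 CPM, with the T-cell gene CD3E at 0 in each library. TC32 vehicle replicate 3 stood apart for histone genes, as described with the TC32 results. A673 3-day vehicle replicate 3 was low for several histone genes: H2BC5 was at 3.17 CPM there and at 7.01 and 7.78 CPM in the other replicates. It was high for others: H2AX was at 171 CPM against 107 and 110 CPM, and MACROH2A1 at 162 CPM against 107 and 105 CPM.

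Variant genes supplied nearly all of the histone mRNA captured. The 13 variant genes summed to between 2160 and 4220 CPM per library and the 72 replication-dependent genes to between 41.7 and 328 CPM. The most abundant variant genes over the 30 libraries were H3-3B (mean 672 CPM) and H3-3A (527 CPM), which encode the replacement histone H3.3. The most abundant replication-dependent genes were H2AC6 (23.3 CPM), H2AC25 (17.5 CPM), H2BC12 (14.0 CPM) and H2BC5 (13.3 CPM). Per kilobase of exon the order changed: H2BC12 stood at 36.6, H2AC25 at 19.5, H2BC5 at 15.2 and H1-2 at 15.1 CPM per kb. H2AC6 followed at 14.0, H2AC20 at 9.05 and H2BC21 at 5.00, beside 168 for H3-3A and 110 for H3-3B. These values depend on the gene models: that of H2BC12 is coding sequence only, 381 bases, and that of H2BC21 spans 2194 exon bases.

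On the deposited counts, 50 of the 85 genes passed the low-count filter and were tested with edgeR's quasi-likelihood test, 39 replication-dependent and 11 variant, among 16713 genes in all. A gene is called higher or lower at a Benjamini-Hochberg adjusted p under 0.05, and changes are log2 (BMS-986158 against vehicle) ± SE. Of the 35 genes not tested, 7 had 0 counts in every library (H2AC1, H2AC7, H2AC15, H2AC17, H2BC1, H3C4 and H4C7), and the highest of the other 28 reached 2.93 CPM in 1 library (H4C4). Since a gene that is high in 1 group alone can pass the filter, counts and medians below describe the genes tested, not the 72 or the 13. Many of these genes have near-identical copies or lie head to head, and the strand setting of the counting is not given, so reads may be shared between neighbours.

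At 3 days the replication-dependent genes called in CHLA10 and A673 were all higher. In CHLA10, 8 of 39 (20.5%) were higher and none lower (edgeR; none lower at an unadjusted p under 0.05 or by DESeq2), beside 14.0% higher and 15.7% lower among all genes tested. In A673, 18 of 39 (46.2%) were higher and none lower (again 0 lower at an unadjusted p under 0.05 and by DESeq2), beside 15.3% and 18.4%. The median log2 change of the 39 genes was 0.96 in CHLA10 and 1.63 in A673, where the median of all genes was -0.011 and -0.016. With H3C3, at 0 counts in the A673 vehicle libraries, set at its bound, the A673 median was 1.51. TC32 had 8 of 39 (20.5%) higher and 6 (15.4%) lower, beside 22.3% and 22.8% of all genes, with a median of -0.63. In bulk RNA, fewer cells that express a gene and less RNA per cell cannot be told apart.

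Summed over the 72 genes, the CHLA10 vehicle libraries held 41.8, 43.4 and 41.7 CPM at 3 days and the treated ones 114, 117 and 85.8 CPM. The A673 libraries held 107, 106 and 77.1 CPM under vehicle and 325, 288 and 274 CPM under BMS-986158. In both lines every treated library was above every vehicle library. In TC32 the sums were 69.9, 63.1 and 179 CPM under vehicle and 166, 151 and 167 CPM under treatment, so the groups overlapped through vehicle replicate 3.

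H2AC6, H2BC5, H2BC21 and H2AC25, which encode H2A and H2B proteins, were the 4 replication-dependent genes called higher in each of the 3 lines at 3 days, beside 4.77% of all genes. None was called lower in each line, where 5.12% of all genes were. Each of the 4 has a stem-loop and an annotated transcript that ends at a poly(A) signal.

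H2AC6 (ENSG00000180573, chr6:26124145-26139116, plus strand, GRCh38) was at 2.35, 3.70 and 3.30 CPM in CHLA10 vehicle and at 20.98, 19.65 and 12.83 CPM in treated cells at 3 days. In A673 it went from 12.3, 11.3 and 10.5 CPM to 51.55, 41.04 and 43.39 CPM. In TC32 it went from 18.64, 17.96 and 21.84 CPM to 53.8, 46.9 and 48.4 CPM. The groups did not overlap in any line. The log2 changes were 2.51 ± 0.30 in CHLA10 (edgeR adjusted p = 7.99e-07), 2.00 ± 0.27 in A673 (adjusted p = 4.32e-06) and 1.35 ± 0.27 in TC32 (adjusted p = 0.000202).

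H2BC5 was at 1.99, 2.02 and 1.88 CPM in CHLA10 vehicle and at 12.04, 10.96 and 7.59 CPM after 3 days of treatment. A673 libraries held 7.01, 7.78 and 3.17 CPM under vehicle and 39.2, 38.3 and 34.9 CPM under treatment. TC32 libraries held 5.97, 5.87 and 11.4 CPM and then 23.7, 20.2 and 22.8 CPM. Every treated library was above its line's vehicle libraries, although TC32 vehicle replicate 3 was the highest vehicle library of all. The log2 changes were 2.37 ± 0.33, 2.65 ± 0.30 and 1.53 ± 0.29 (edgeR adjusted p = 3.6e-06, 1.92e-07 and 0.000117).

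H2BC21 was lowest in CHLA10 vehicle, at 1.29, 1.14 and 0.915 CPM, and at 8.94, 9.36 and 5.90 CPM after treatment. In A673 it went from 11.5, 12.7 and 6.26 CPM to 33.99, 34.27 and 30.05 CPM, and in TC32 from 2.46, 3.95 and 8.99 CPM to 14.48, 15.12 and 17.01 CPM. No vehicle library reached a treated one of its line. The log2 changes were 2.86 ± 0.38, 1.69 ± 0.31 and 1.62 ± 0.33 (edgeR adjusted p = 2.13e-06, 0.000144 and 0.000228).

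H2AC25, an H2A gene on chromosome 1, was the only replication-dependent gene called higher in all 5 treatment comparisons (2.81% of all genes). It was at 3.28, 3.75 and 4.12 CPM in CHLA10 3-day vehicle and at 11.25, 13.95 and 10.06 CPM under treatment. The changes were smaller in the other lines, 1.66 ± 0.17 in CHLA10 against 0.70 ± 0.16 in A673 and 0.90 ± 0.16 in TC32. Both differences passed their own test (A673 minus CHLA10 -0.96 ± 0.23, edgeR adjusted p = 0.00849; TC32 minus CHLA10 -0.76 ± 0.23, adjusted p = 0.0293). At 20 days H2AC25 was higher by 1.18 ± 0.17 in CHLA10 and by 1.23 ± 0.16 in A673.

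**Figure D1:**
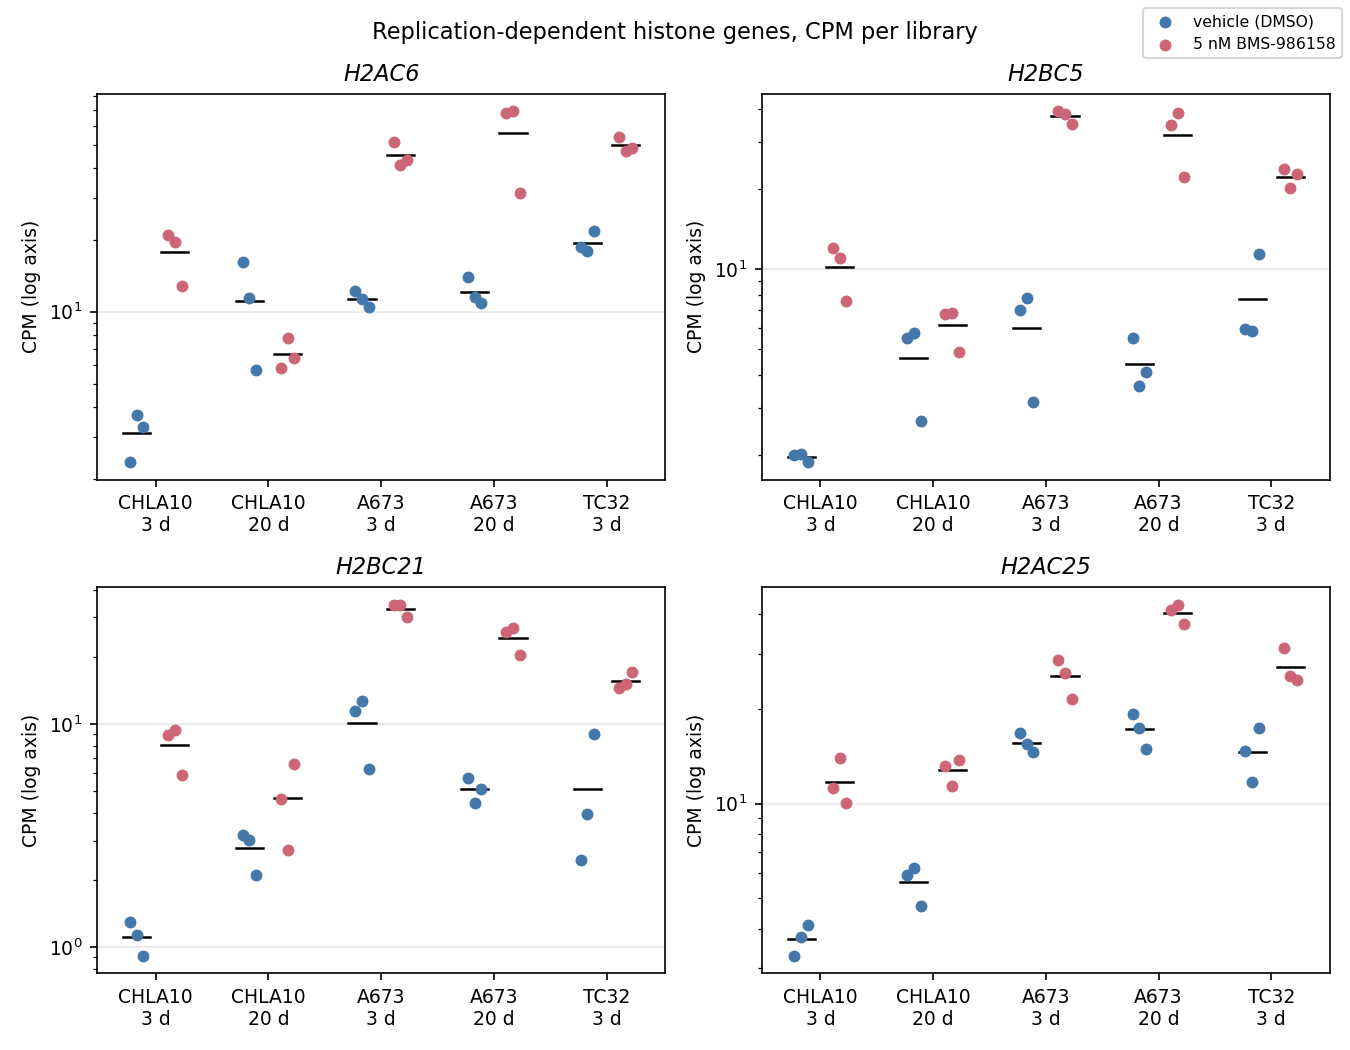
CPM per library (log axis) of H2AC6, H2BC5, H2BC21 and H2AC25 in each line and time, vehicle in blue and BMS-986158 in red; each point is a library and each black line the mean of 3. Treated libraries lie above vehicle in every group for H2AC25, while for H2AC6 in CHLA10 at 20 days the treated libraries (5.80 to 7.80 CPM) lie within the vehicle range (5.69 to 16.2 CPM).

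The tested replication-dependent genes were also grouped by annotated end: 17 of the 22 with a poly(A) signal at a transcript end were tested, and 22 of the 50 with none. Most tested genes with none, H1-2, H2BC12 and H2AC20 among them, have coding-only models in which no signal could be searched. The sets also differed in level. H2AC6, H2AC25, H2BC5 and H2BC21 have a signal, and H2BC12 (14.0 CPM) and H1-2 (9.68 CPM) have none annotated, but most genes of the second set averaged under 1 CPM. The difference between the sets was not tested. In CHLA10 at 3 days 7 of 17 (41.2%) were higher against 1 of 22 (4.55%), beside 14.0% of all genes. In A673 11 of 17 (64.7%) were against 7 of 22 (31.8%), beside 15.3%. In TC32 7 of 17 (41.2%) were against 1 of 22 (4.55%), beside 22.3%. No gene of either set was lower in CHLA10 or A673, beside 15.7% and 18.4% of all genes. In TC32 2 of 17 (11.8%) and 4 of 22 (18.2%) were lower, beside 22.8%. The medians were 1.42 and 0.74 in CHLA10, 1.72 and 1.16 in A673 and 0.41 and -1.58 in TC32. The TC32 medians depended on the filter. With only the TC32 libraries filtered and fitted, 15 genes with a signal and 6 without were tested, with medians of 0.88 and 0.16. Of the 6, 1 was higher and 0 lower.

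**Figure D2:**
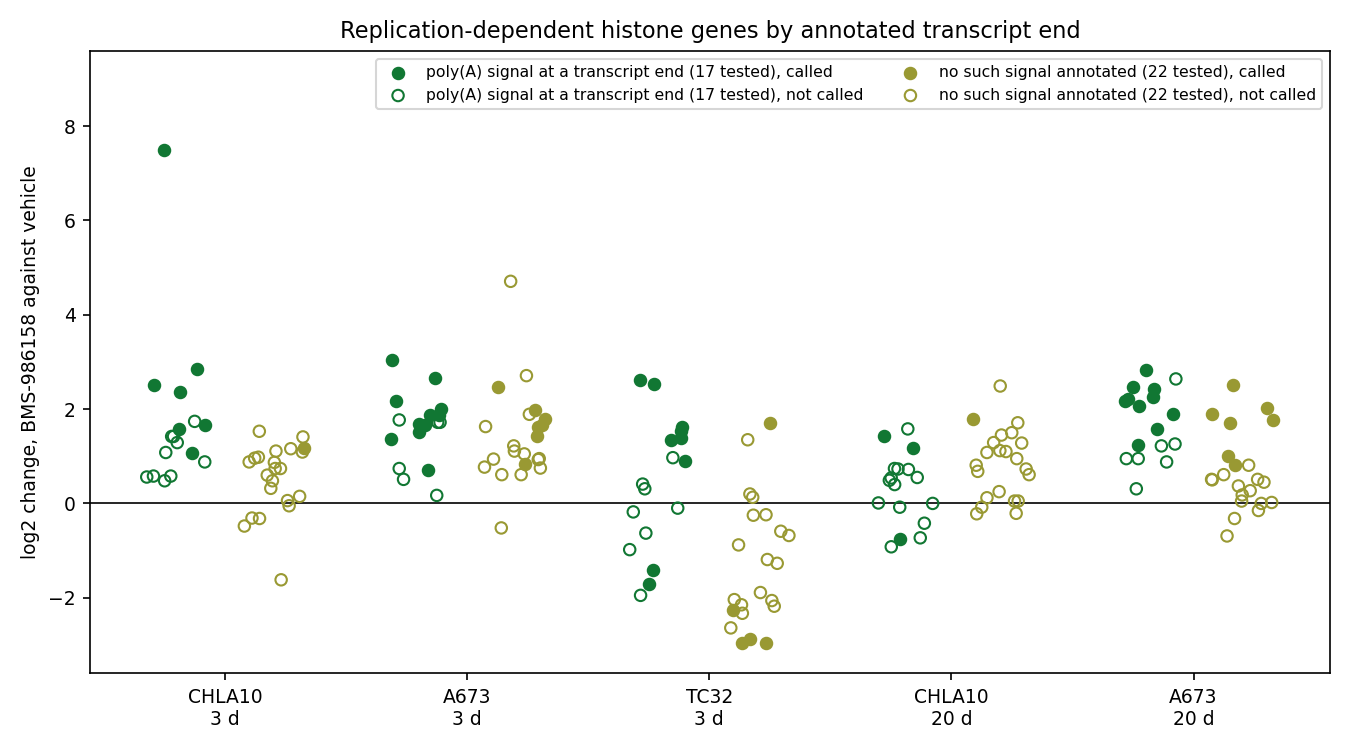
log2 change of the 39 tested replication-dependent genes in the 5 treatment comparisons, split by whether an annotated transcript ends at a poly(A) signal; filled points are called at edgeR adjusted p under 0.05. Called genes lie above 0 in CHLA10 at 3 days and in A673 at both times; the CHLA10 point at 7.49 is H4C14, which had 0 counts in the vehicle libraries.

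By family, the A673 genes higher at 3 days were 9 of 13 tested H2B genes, 4 of 8 H2A, 2 of 9 H3, 2 of 6 H4 and 1 of 3 H1 genes. Of all genes 15.3% were higher, and the H3 share lay nearest to that. In CHLA10 and in TC32, 3 of the 13 H2B genes were higher, beside 14.0% and 22.3% of all genes. H4C8 was at 1.00, 1.42 and 0.754 CPM under vehicle and at 9.83, 9.05 and 7.35 CPM under treatment (log2 change 3.04 ± 0.50, edgeR adjusted p = 3.68e-05). H2BC12 was already at 21.67, 18.64 and 11.01 CPM under vehicle in this line and reached 48.3, 45.2 and 44.6 CPM (1.43 ± 0.26). In CHLA10 and TC32 H2BC12 stayed between 3.40 and 9.52 CPM in each library and was not called. H4C9 went from 3.89, 4.04 and 2.98 CPM to 12.8, 11.4 and 10.2 CPM (1.66 ± 0.23).

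The linker gene H1-2 was at 11.01, 10.57 and 5.28 CPM in A673 vehicle and at 30.01, 26.2 and 26.6 CPM after 3 days of BMS-986158 (1.63 ± 0.29, edgeR adjusted p = 7.65e-05). H2BC9 was higher in both A673 (1.88 ± 0.34) and CHLA10 (1.07 ± 0.30), where it ran from 5.04, 5.93 and 5.13 CPM to 11.4, 13.3 and 9.11 CPM. In TC32 H2BC9 was lower, at 1.79, 0.888 and 2.40 CPM under vehicle and 0.741, 0.491 and 0.640 CPM under treatment (-1.41 ± 0.40, adjusted p = 0.00482). Its adjusted p was 0.0467 without TC32 vehicle replicate 3 and 0.0892 without both TC32 replicates 3 (-1.08 each time).

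H4C14 had 0 counts in the 3 CHLA10 vehicle libraries at 3 days and 71 counts in the treated ones, at least 19.1-fold higher when the vehicle group as a whole is set at a floor of 3 counts. In TC32 it was at 0.725, 0.740 and 0.200 CPM under vehicle and at 4.05, 2.70 and 3.20 CPM under treatment (2.54 ± 0.78, edgeR adjusted p = 0.00938, and 0.0785 without both replicates 3). H2BC6 was higher in A673 (2.18 ± 0.43) and TC32 (2.62 ± 0.41), where it went from 0.837, 0.296 and 0.533 CPM to 2.92, 4.32 and 3.04 CPM. In CHLA10 it was between 0.305 and 0.715 CPM in each 3-day library.

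Neighbouring genes that share a promoter region did not always share a call. Among the 72, 12 pairs lie head to head with starts within 400 bases of each other. H2AC6 and H2BC4 have starts 218 bases apart: in CHLA10 H2AC6 changed by 2.51, while H2BC4 stood at 0.762, 1.63 and 1.22 CPM under vehicle and 1.27, 2.23 and 1.95 CPM under treatment (0.58, not called). In A673 both were higher, H2BC4 by 1.51 ± 0.43. H2BC21 and H2AC20, 322 bases apart, were both higher in CHLA10 (2.86 and 1.18), and in TC32 H2AC20 was at -0.25 and not called. H2AC25 and H2BC26, 233 bases apart, were both called in A673 (0.70 and 2.46), although H2BC26 was not without treated replicate 1 (2.02, adjusted p = 0.0527).

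Among the TC32 decreases, H1-4, H1-5, H2AC13, H3C3 and H3C10 were each not called without 1 or another single library. H2BC9 stayed called with each library left out in turn. H3C10 (-1.70, edgeR adjusted p = 0.0102) stayed called without vehicle replicate 3 (-1.57, 0.0357) and without both replicates 3 (-2.87, 0.0016), and was not called without treated replicate 1 (-1.31, 0.0629) or 2 (-1.31, 0.0717) or vehicle replicate 1 (-1.28, 0.0885). TC32 vehicle replicate 3 had the highest level of the 6 TC32 libraries for 43 of the 61 replication-dependent genes with counts there. The 50 genes with no annotated poly(A) signal summed to 93.2 CPM in it and to 18.1 and 17.9 CPM in the other vehicle libraries, 5.19 times their mean, whereas the 22 genes with a signal stood at 1.77 times and the 13 variants at 1.05 times that mean. RMRP, an RNA that lacks a poly(A) tail, was at 179 CPM in this library and at 1.00 and 3.45 CPM in the other vehicle libraries, and at 21.2 CPM in treated replicate 3 against 0.543 and 0.245 CPM. Whether untailed RNA has a part in the TC32 results was not tested.

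Without that library, 12 of the tested replication-dependent genes were higher and 2 lower in place of 8 and 6, and the genes with no annotated signal had a median of 1.16 in place of -1.58, with 3 of 22 higher and none lower. Without either replicate 3, 9 were higher and 2 lower. Leaving out treated replicate 1 or 2 left 1 and 2 lower, and leaving out vehicle replicate 1 or 2 gave 10 and 13 lower. The low-count filter was rerun each time, so the genes tested also changed. In each of these runs 17 genes with a signal and 25 without were tested, against 17 and 22 without vehicle replicate 3. H1-5 shows the dependence: it was at 0, 0.0987 and 6.99 CPM under vehicle and 0, 0.0982 and 0.7998 CPM under treatment, giving -2.96 ± 1.10 (edgeR adjusted p = 0.03) with all libraries and 2.38 (adjusted p = 0.128) without vehicle replicate 3. It was -2.37 (0.108) without treated replicate 1, -2.54 (0.117) without treated replicate 2 and -5.40 without treated replicate 3. H1-4 went from -2.27 (0.0498) to 1.14 (0.328) without vehicle replicate 3. H3C3 went from -2.97 (0.0295) to -1.10 (0.494) without vehicle replicate 3, and was not called without treated replicate 1 (-2.41, 0.102) or 3 (-2.76, 0.0897). The 4 genes shared by the lines were higher in TC32 either way: without vehicle replicate 3 H2AC6 changed by 1.44, H2BC5 by 1.91, H2BC21 by 2.27 and H2AC25 by 1.04, each with an adjusted p of at most 0.000795.

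**Figure D3:**
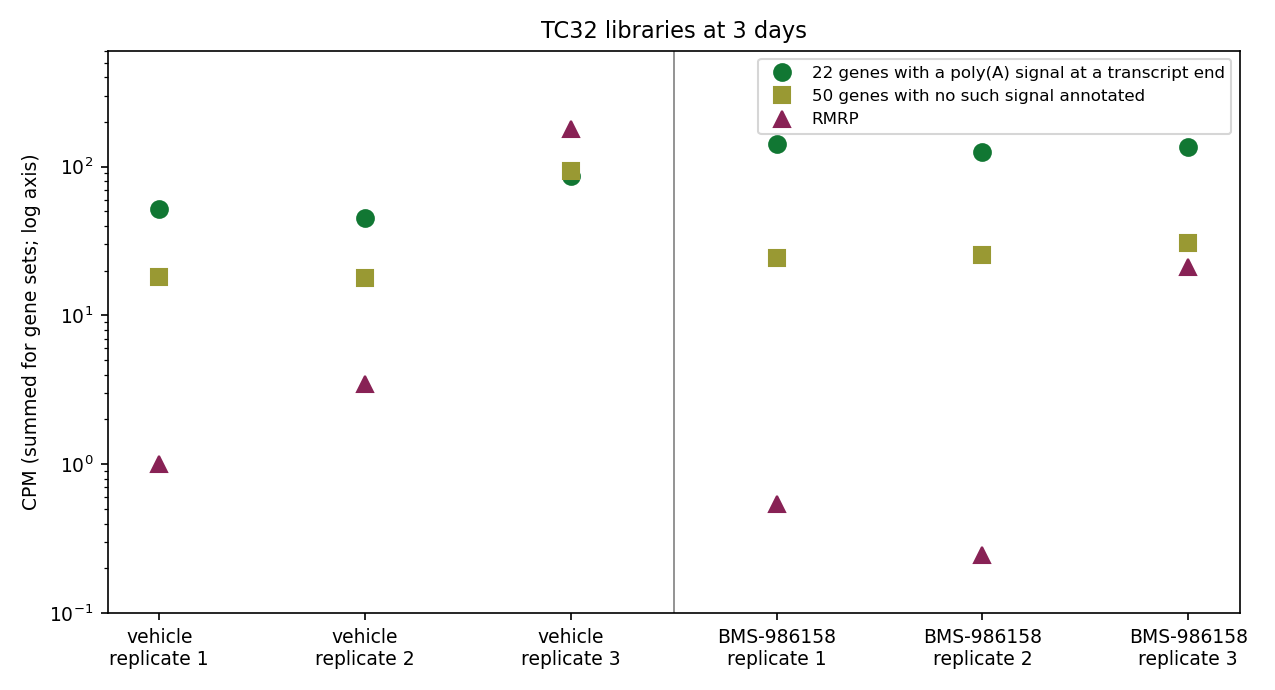
Summed CPM of the replication-dependent genes with (circles) and without (squares) an annotated poly(A) signal at a transcript end, and CPM of RMRP (triangles), in the 6 TC32 libraries (log axis). Vehicle replicate 3 holds 93.2 CPM of genes without a signal and 179 CPM of RMRP, above each other TC32 library.

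In A673 at 20 days, 17 of 39 replication-dependent genes (43.6%) were higher and none lower (none at an unadjusted p under 0.05 or by DESeq2), beside 19.7% higher and 19.9% lower among all genes. Leaving out treated replicate 2 left 11 higher. In CHLA10 3 were higher (H2AC20, H2AC25 and H2BC9) and 1 lower (H2AC6), 7.69% and 2.56% of the 39, beside 16.5% and 17.2% of all genes. The medians were 0.95 in A673 and 0.68 in CHLA10, beside 0 and -0.020 for all genes.

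H2AC6, which had the largest called difference between the times in CHLA10, was at 5.80, 7.80 and 6.40 CPM in 20-day treated cells and at 16.2, 11.5 and 5.69 CPM under vehicle. Vehicle replicate 3 was below the treated libraries and the others above them. The change of -0.75 ± 0.28 had an edgeR adjusted p of 0.0419 and was not called with a replicate block (-0.66, adjusted p = 0.0612) or without treated replicate 1 (-0.65, 0.131), treated replicate 3 (-0.72, 0.108), vehicle replicate 1 (-0.37, 0.378) or vehicle replicate 2 (-0.73, 0.099). H2BC5 was at 6.77, 6.84 and 4.89 CPM under treatment and at 5.49, 5.76 and 2.67 CPM under vehicle, and H2BC21 at 4.63, 2.74 and 6.604 CPM and at 3.19, 3.02 and 2.11 CPM. Their groups overlapped and neither was called (0.40 and 0.74).

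The 20-day effect was smaller than the 3-day effect in CHLA10 by -3.25 ± 0.41 for H2AC6 (edgeR adjusted p = 0.00017), by -1.97 ± 0.44 for H2BC5 (0.0101) and by -2.12 ± 0.51 for H2BC21 (0.0156). Of the 50 histone genes 3 had a lower effect and 2 a higher one, H2AX and MACROH2A1, beside 2.97% and 3.35% of all genes. The count of 5 became 2 or 3 without 3-day treated replicate 1, 3-day vehicle replicate 2 or 3, 20-day treated replicate 3 or 20-day vehicle replicate 1 or 2, and 8 without 20-day vehicle replicate 3. The H2BC21 difference had an adjusted p of 0.051 without 3-day vehicle replicate 3, 0.0538 without 20-day vehicle replicate 1 and 0.0536 without 20-day vehicle replicate 2.

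The vehicle levels also differed between the times. In CHLA10 vehicle H2AC6 went from 2.35, 3.70 and 3.30 CPM at 3 days to 16.2, 11.5 and 5.69 CPM at 20 days, a log2 change of 1.83 ± 0.31 (edgeR adjusted p = 0.000367). H2BC5 (1.25 ± 0.34), H2BC21 (1.32 ± 0.40) and H2AC25 (0.60 ± 0.18) were also higher in 20-day vehicle. Of the 39 genes 4 (10.3%) were higher and none lower (1 lower at an unadjusted p under 0.05), beside 8.05% and 7.06% of all genes. The H2BC21 call was lost without any one of the 3-day vehicle libraries (adjusted p = 0.0509, 0.0743 and 0.105 for replicates 1 to 3) or without 20-day vehicle replicate 1 (0.1) or 2 (0.0853). The H2BC5 call was lost without 3-day vehicle replicate 3 (0.0526) or 20-day vehicle replicates 1 (0.069) or 2 (0.0777). In A673 vehicle no replication-dependent gene was called by edgeR between the times (1 lower at an unadjusted p under 0.05), beside 3.02% higher and 3.08% lower of all genes. Of the variant genes called there, H2AJ (-0.79) and MACROH2A1 (0.54) were not called without 3-day vehicle replicate 1 or 2 or 20-day vehicle replicate 1, and H2AJ was not called without 20-day vehicle replicate 3 either (-0.76, edgeR adjusted p = 0.0986). The 3 histone genes called became 7 without 3-day vehicle replicate 3. DESeq2 called 5 histone genes.

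H2AC6 and H2BC5 were higher in A673 at 20 days too. H2AC6 was at 13.97, 11.48 and 10.9 CPM under vehicle and at 68.0, 69.3 and 31.5 CPM under treatment (2.21 ± 0.27, edgeR adjusted p = 5.24e-07). H2BC5 went from 5.48, 3.63 and 4.12 CPM to 34.7, 38.5 and 22.1 CPM (2.84 ± 0.30). Treated replicate 3 was the lowest of its group for both, and still above each vehicle library. The effect of BMS-986158 at 20 days was larger in A673 than in CHLA10 for H2AC6 by 2.96 ± 0.39 (adjusted p = 5.69e-06), H2BC5 by 2.44 ± 0.42 and H2BC21 by 1.52 ± 0.47, among 6 of 39 replication-dependent genes higher in that difference and none lower (none at an unadjusted p under 0.05), beside 11.4% and 10.5% of all genes. Of the 7 histone genes called in it, 4 were left without 20-day CHLA10 vehicle replicate 1.

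Effects were also compared between times in A673 and between lines at 3 days. Between times in A673, 2 of 50 histone genes had a lower effect (H4C9 and MACROH2A2) and none a higher one (1 at an unadjusted p under 0.05), beside 2.93% and 4.33% of all genes. Between A673 and CHLA10 at 3 days, 4 had a higher effect in A673 (H2BC12, H4C9, MACROH2A1 and MACROH2A2) and H2AC25 a lower one, beside 4.85% and 5.65% of all genes. Between TC32 and CHLA10, 1 was higher (H2BC6) and 8 lower, beside 7.34% and 6.47%. Between TC32 and A673, none was higher (none at an unadjusted p under 0.05) and 16 were lower, among them the abundant variant genes MACROH2A2 (-1.54), H2AZ1 (-0.83) and H2AX (-0.80), beside 12.4% and 11.8%. Without both TC32 replicates 3 the last 2 comparisons called 2 and 8 histone genes.

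Of the 11 variant genes tested, 6 were higher and 1 lower in CHLA10 at 3 days (54.5% and 9.09%, beside 14.0% and 15.7% of all genes). In A673 7 and 2 were (63.6% and 18.2%, beside 15.3% and 18.4%), and in TC32 5 and 3 (45.5% and 27.3%, beside 22.3% and 22.8%). At 20 days 7 and 1 were in CHLA10 (63.6% and 9.09%, beside 16.5% and 17.2%) and 6 and 1 in A673 (54.5% and 9.09%, beside 19.7% and 19.9%). The shares higher were above those of all genes in each comparison, and the shares lower were near or below them. H1-10, H2AZ2, H3-3A and H3-3B were among those higher in all 5 comparisons (2.81% of all genes), and MACROH2A2 was lower in all 5 (3.10%).

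**Figure D4:**
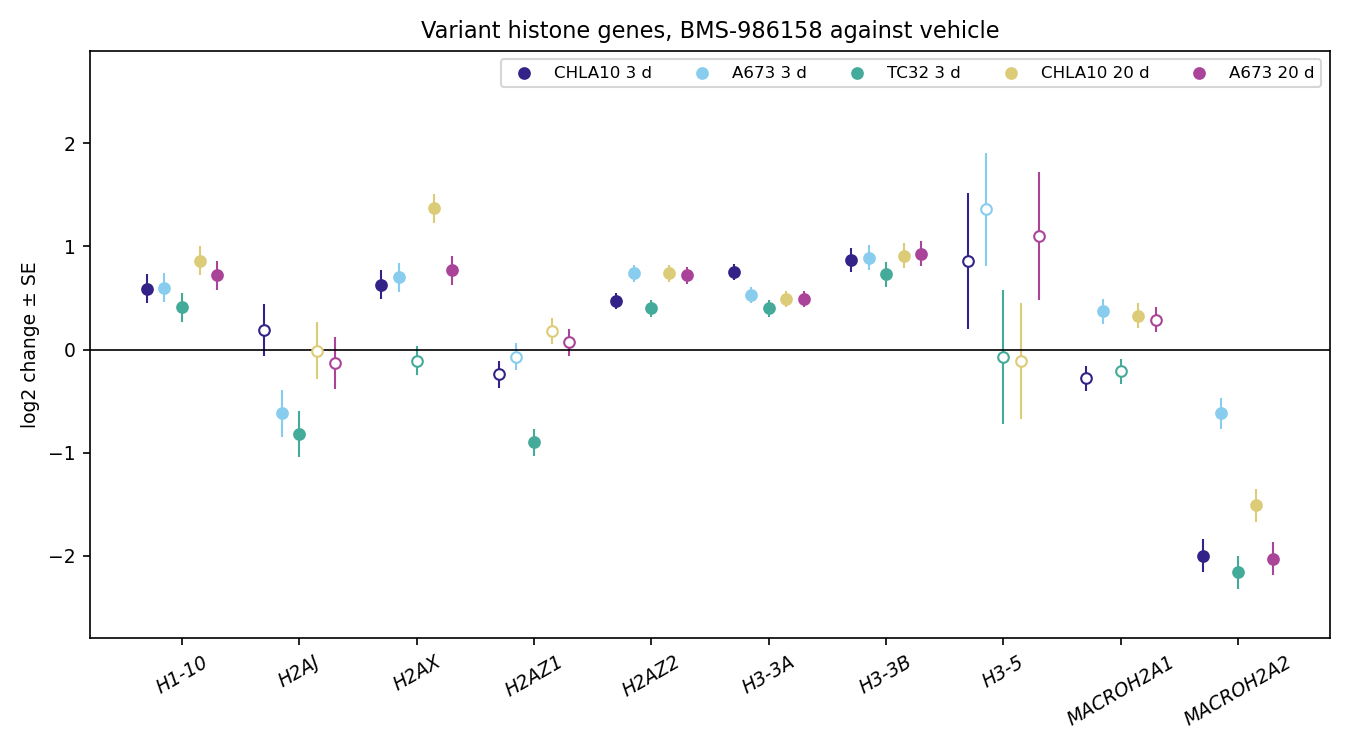
log2 change ± SE of 10 of the tested variant genes under BMS-986158 in the 5 treatment comparisons; filled points are called at edgeR adjusted p under 0.05. H1-10, H2AZ2, H3-3A and H3-3B are filled and above 0 and MACROH2A2 filled and below 0 in each comparison, and H2AZ1 is filled in TC32 only.

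H1-10, a linker histone gene, rose by 0.41 ± 0.14 (TC32) to 0.86 ± 0.14 (CHLA10, 20 days). The TC32 H1-10 call was lost without treated replicate 1 (0.30, adjusted p = 0.112) or vehicle replicate 2 (0.33, 0.0906).

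H3-3A and H3-3B, which encode the same H3.3 protein, both rose. H3-3B was at 439, 438 and 451 CPM in CHLA10 3-day vehicle and at 810, 822 and 791 CPM under treatment, and its change lay between 0.73 ± 0.12 (TC32) and 0.93 ± 0.12 (A673, 20 days). H3-3A rose by 0.75 ± 0.08 in CHLA10 at 3 days, from 411, 433 and 417 CPM to 745, 756 and 620 CPM, and by 0.40 ± 0.08 to 0.53 ± 0.08 in the other 4 comparisons. The CHLA10 and TC32 effects on H3-3A differed at 3 days (TC32 minus CHLA10 -0.36 ± 0.11, edgeR adjusted p = 0.0368).

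H2AZ2, 1 of a pair of genes for the H2A.Z protein placed at promoters, rose by 0.40 ± 0.08 (TC32) to 0.74 ± 0.08 (A673 at 3 days and CHLA10 at 20 days). Its partner H2AZ1 was not called in CHLA10 or A673 at either time. In CHLA10 at 3 days its treated libraries (401, 393 and 385 CPM) still lay below vehicle (450, 460 and 480 CPM). The change there was -0.24 ± 0.13 (edgeR adjusted p = 0.177). In TC32 it was at 408, 341 and 381 CPM under vehicle and at 230, 192 and 182 CPM under treatment, a change of -0.90 ± 0.13 (edgeR adjusted p = 3.66e-06). The groups did not overlap. The TC32 effect on H2AZ1 was below those of CHLA10 (-0.66 ± 0.19, adjusted p = 0.0176) and A673 (-0.83 ± 0.19, adjusted p = 0.00185).

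H2AX, whose phosphorylated protein marks DNA breaks, was higher in CHLA10 and A673 and not called in TC32. In CHLA10 it was at 261, 275 and 277 CPM under vehicle and at 412, 447 and 400 CPM after 3 days of treatment (0.63 ± 0.14), and at 164, 149 and 217 CPM and 421, 432 and 516 CPM at 20 days (1.37 ± 0.14). A673 changed by 0.70 ± 0.14 and 0.77 ± 0.14. Its 3-day libraries held 107, 110 and 171 CPM under vehicle and 198, 215 and 217 CPM under treatment. TC32 libraries held 307, 299 and 304 CPM under vehicle and 298, 283 and 263 CPM under treatment. The differences of TC32 from CHLA10 (-0.74 ± 0.19, edgeR adjusted p = 0.0112) and from A673 (-0.80 ± 0.19, adjusted p = 0.00336) were called, as was the larger effect at 20 days in CHLA10 (0.74 ± 0.19, adjusted p = 0.022). In CHLA10 vehicle H2AX was lower at 20 than at 3 days (-0.62 ± 0.14), as were H2AZ1, H2AZ2, H2AJ and MACROH2A1. Of the 11 variant genes 5 (45.5%) were lower and none higher there (1 higher at an unadjusted p under 0.05), beside 7.06% and 8.05% of all genes.

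MACROH2A2 encodes a large macroH2A histone of silent chromatin and was the variant gene lower in each comparison. In CHLA10 at 3 days it was at 154, 163 and 163 CPM under vehicle and at 33.1, 37.7 and 49.4 CPM under treatment (-2.00 ± 0.16, edgeR adjusted p = 6.74e-10). In TC32 it went from 104, 105 and 107 CPM to 23.1, 21.9 and 25.8 CPM (-2.16 ± 0.16). A673 held the most under vehicle, 518, 505 and 458 CPM, and 310, 336 and 320 CPM under treatment (-0.62 ± 0.15). The 3-day effect was weaker in A673 than in CHLA10 by 1.38 ± 0.22 (adjusted p = 0.000193), and TC32 lay below A673 by -1.54 ± 0.22.

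By 20 days MACROH2A2 in A673 was at 103, 101 and 162 CPM against 528, 479 and 487 CPM under vehicle (-2.03 ± 0.16), 1.41 ± 0.22 further down than at 3 days (difference -1.41, edgeR adjusted p = 0.000244). CHLA10 at 20 days stood at -1.51 ± 0.16. Its paralog MACROH2A1 was at 213, 216 and 215 CPM in CHLA10 3-day vehicle and at 172, 175 and 182 CPM under treatment, without overlap (-0.28 ± 0.12, edgeR adjusted p = 0.0774). That difference was called with library size alone (0.0491) or only the lines compared (0.0407). In TC32 it was at 133, 136 and 143 CPM under vehicle and at 118, 119 and 121 CPM under treatment, also without overlap (-0.21 ± 0.12, adjusted p = 0.168, and 0.0265 with only the line compared). In A673 at 3 days it was 0.37 ± 0.12 higher. That call was lost without treated replicate 1 (adjusted p = 0.0512) or vehicle replicate 1 (0.123) or 2 (0.142), or with only the line compared (0.0873). MACROH2A1 was also called higher in CHLA10 at 20 days (0.33 ± 0.12, edgeR adjusted p = 0.0354). Leaving out any treated library there lost the call (0.0734, 0.0538 and 0.0859 for replicates 1 to 3). So did leaving out vehicle replicate 1 (0.163) or 2 (0.172), or library size alone (0.0529). Exons of MACROH2A2 overlap those of AIFM2 on the opposite strand by 11 bases. Exons of MACROH2A1 overlap those of PITX1-AS1 by 4968 bases and those of another gene by 509, also on the opposite strand. As the strand setting of the counting is not given, reads may be shared there.

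**Figure D5:**
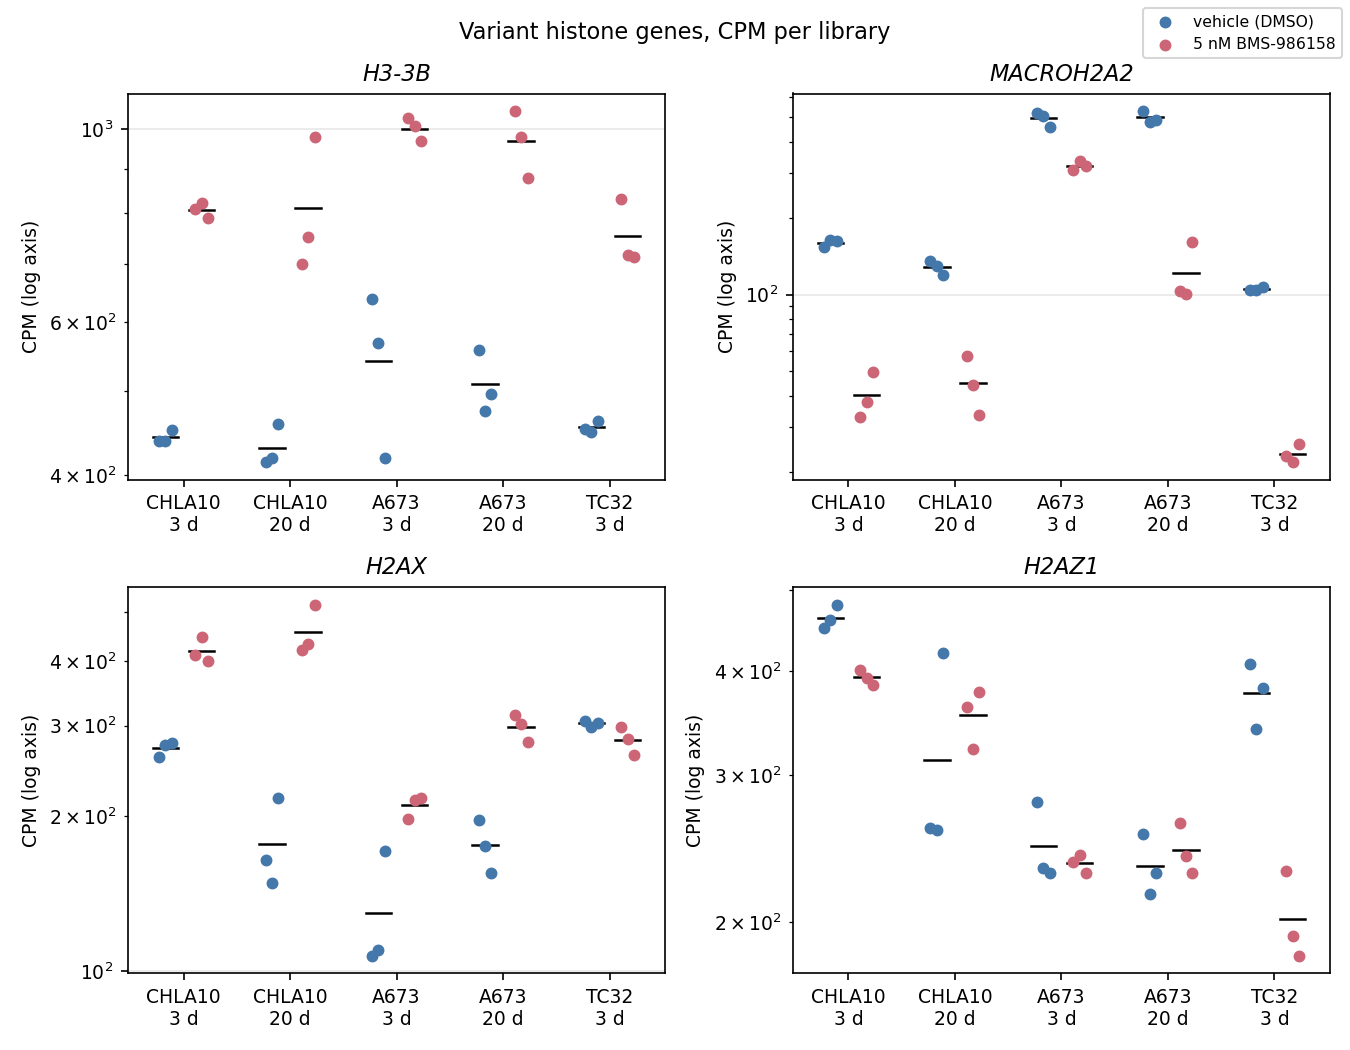
CPM per library (log axis) of H3-3B, MACROH2A2, H2AX and H2AZ1, vehicle in blue and BMS-986158 in red; each point is a library and each black line the mean of 3. MACROH2A2 is lower in the treated libraries of every group, and H2AX in TC32 (263 to 307 CPM) shows treated libraries below vehicle.

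Genes that act on histone supply were read beside these values. Of 20 S-phase replication genes (MCM helicase subunits, RRM2, TYMS and others), 15 were lower and none higher in CHLA10 at 3 days (75% lower, beside 15.7% of all genes), 5 and 0 in A673 (25% beside 18.4%) and 19 and 0 in TC32 (95% beside 22.8%). At 20 days 14 were lower and 1 higher in A673 (70% lower beside 19.9%), and in CHLA10 none was lower and 11 were higher (55% beside 16.5%). In CHLA10 vehicle 19 of the 20 were lower at 20 days than at 3 (95% beside 7.06%). The A673 share at 3 days was the one nearest that of all genes. The part of a change in S-phase share in the histone values was not tested. Of 21 genes for histone mRNA synthesis and 3′ processing, 1 was higher and 3 lower in CHLA10 at 3 days (4.76% and 14.3%, beside 14.0% and 15.7% of all genes), 5 and 2 in A673 (23.8% and 9.52%, beside 15.3% and 18.4%) and 5 and 7 in TC32 (23.8% and 33.3%, beside 22.3% and 22.8%). At 20 days 5 and 1 were in CHLA10 (23.8% and 4.76%, beside 16.5% and 17.2%) and 3 and 5 in A673 (14.3% and 23.8%, beside 19.7% and 19.9%). The share lower in CHLA10 at 3 days and the share higher in TC32 were near those of all genes. LSM11, a subunit of the U7 particle that cuts at the stem-loop, was lower in all 5 comparisons (-0.80, -0.56, -0.38, -0.80 and -0.57). SLBP was higher in A673 at 3 days (0.41) and in CHLA10 at 20 days (0.65).

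Among 30 tested genes for histone chaperones and exchange factors, 3 were higher and 6 lower in CHLA10 at 3 days (10% and 20%, beside 14.0% and 15.7% of all genes), 6 and 3 in A673 (20% and 10%, beside 15.3% and 18.4%) and 8 and 15 in TC32 (26.7% and 50%, beside 22.3% and 22.8%). At 20 days 10 and 1 were in CHLA10 (33.3% and 3.33%, beside 16.5% and 17.2%) and 2 and 8 in A673 (6.67% and 26.7%, beside 19.7% and 19.9%). The shares in CHLA10 and A673 at 3 days lay near those of all genes. ANP32E, which removes H2A.Z from nucleosomes, was lower in all 5 (-0.52, -0.37, -0.75, -0.55 and -1.12). CHAF1A, the large subunit of the CAF-1 chaperone of newly made H3 and H4, was lower in CHLA10 at 3 days (-0.48), TC32 (-0.95) and A673 at 20 days (-0.47).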

How the data were processed

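Per the labels' protocols, poly(A)-enriched RNA libraries were read as pairs on a NovaSeq. The submitters' processing notes list FastQC, Trim Galore, STAR, DESeq2 and GRCh38. No source used here gives their versions, the counter, its strand setting or its annotation. The authors deposited raw counts, whole numbers per Ensembl gene. Each of the 30 columns matched 1 sample title, all labelled batch 1. Totals ran from 16.1 M to 48.9 M.

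Symbols came from the supplied gene name table (33113 of 33538 IDs) and transcripts from GENCODE 29, promoters from RefSeq. Counts were fitted with edgeR 4.0.16 (R 4.3.3): filterByExpr by group, TMM, 1 quasi-likelihood model over the 30 libraries, Benjamini-Hochberg adjustment over 16713 genes. SE was derived from the F statistic (absolute log2 change over its root). CPM used TMM-scaled sizes. Floors (3 counts over a group) cover counting error only. The replication-dependent class holds the clustered genes, H1-1 to H1-6 included, with H3-4 and H3-7.

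The members, lists and rules were chosen with earlier results of these data known. Genes named are the 6 most abundant of each class, the largest called changes in each comparison, and those called alike in the 3 lines or in all 5 comparisons. H1-5, H3C3, H2BC4, H2AC20, H2BC26, SLBP and CHAF1A, with LSM11 and ANP32E across comparisons, were singled out after their values were seen. Replicate numbers are from the titles; deviations from group means correlated above 0.1 in each pair in CHLA10 at 20 days alone (0.20, 0.15 and 0.36). No libraries agreed within counting noise (lowest chi-square per gene 2.16). Alternatives were DESeq2 1.42.0, RLE factors, library size alone, no filter, only the lines compared, a replicate block and each library left out; leaving out both TC32 replicates 3 was chosen after seeing the data. Simulated counts with known changes were used to test the fit. Figures used matplotlib 3.10.9 (Python 3.11.15). Values of 1 member are not reported here, although counts over the class include it.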

Additional observations from a re-analysis of the deposited data

Results flagged for a closer look

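The effect of BMS-986158 differed between times or lines for these histone genes by a test of the difference itself (edgeR's quasi-likelihood test, adjusted p under 0.05), given as differences of log2 changes; up to 3 of the largest per contrast are listed. In CHLA10, 20 minus 3 days, H2AC6 differed by -3.25, H2BC21 by -2.12 and H2BC5 by -1.97. In A673, 20 minus 3 days, MACROH2A2 differed by -1.41 and H4C9 by -1.16, where 2 of 50 genes were lower and none higher, beside 2.93% and 4.33% of all genes. The H4C9 value was not called without 3-day treated replicate 1 (adjusted p = 0.0646) or 20-day vehicle replicate 1 (0.0685).

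At 3 days, A673 minus CHLA10, MACROH2A2 differed by 1.38, H2BC12 by 1.37 and H4C9 by 1.34, among 4 higher and 1 lower of 50 (4.85% and 5.65% of all genes). H2BC12 was not called without CHLA10 treated replicate 2 (adjusted p = 0.0636) or vehicle replicate 2 (0.0509), nor H4C9 without that vehicle library (0.0535). For TC32 minus CHLA10, H3C10 differed by -3.29, H2BC9 by -2.48 and H2BC6 by 2.07, among 1 higher and 8 lower (7.34% and 6.47%). H2BC6 was not called without CHLA10 vehicle replicate 1 or 2, TC32 treated replicate 2 or TC32 vehicle replicate 2 (adjusted p from 0.0587 to 0.0732), nor without both TC32 replicates 3 (2.14, 0.0723).

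For TC32 minus A673, H3C3 differed by -7.68, H4C3 by -4.74 and H2AC13 by -4.10, among 16 lower and none higher (11.8% and 12.4%). H3C3 had 0 counts in the A673 vehicle libraries and 11 in the treated ones, so its fitted value is no bound; without TC32 vehicle replicate 3 it was -5.84 (adjusted p = 0.0568), and without A673 treated replicate 1 -6.82 (0.051). H4C3 was at 0, 0.148 and 3.60 CPM in TC32 vehicle, and without replicate 3 its difference was -0.88 (0.739); without A673 vehicle replicate 2 it was -4.48 (0.0507).

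At 20 days, A673 minus CHLA10, H4C8 differed by 3.16, H2AC6 by 2.96 and H2BC6 by 2.46. H4C8 went from 2.26, 0.697 and 0.775 CPM to 7.36, 7.94 and 5.14 CPM in A673, and lay between 0.204 and 0.661 CPM in each 20-day CHLA10 library.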

How the results depend on the processing

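Of 168 single-gene changes examined 112 were called, and 80 of these were called under every alternative run. Of the 168, 1 reversed: H1-5 in TC32, 2.38 without vehicle replicate 3 (-5.40 to 2.38 over libraries left out). H1-4, not among the 168, also changed sign in TC32, from -2.27 (edgeR adjusted p = 0.0498) to 1.14 (0.328) without vehicle replicate 3. Counts that moved by over 1.5 times follow. Lower variant genes in CHLA10 at 3 days became 2 with library size alone or only its own line, and in A673 at 3 days 1 with only its own line (1 to 2 over libraries left out). Lower replication-dependent genes in TC32 became 1 with only its own line (15 tested with a poly(A) signal and 6 without) and 2 without both replicates 3. Over libraries left out they ran from 1 to 13. They were 10 without vehicle replicate 1, 13 without vehicle replicate 2, 2 without vehicle replicate 3 or treated replicate 2, and 1 without treated replicate 1. In CHLA10 at 20 days the higher ones became 5 with only its own line, and the lower one became 0 with no filter, only its own line or the replicate block (0 to 1 over libraries left out). Higher ones in A673 at 20 days ran from 11 to 18. The replicate block cost H2AC6 in CHLA10 at 20 days (-0.66), where same-numbered deviations correlated above 0.1 in each pair. It also cost H3C3 in TC32 (-2.53), where they did not. The labels do not say whether numbers pair libraries.

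Genes called in the differences ran, over libraries left out, from 2 to 8 (CHLA10 over time, 5 with all), 1 to 3 (A673 over time, 2; 1 with no filter), 3 to 7 (A673 minus CHLA10, 3 days, 5), 3 to 14 (TC32 minus CHLA10, 9; 2 without both replicates 3), 12 to 25 (TC32 minus A673, 16; 8 without both) and 4 to 9 (A673 minus CHLA10, 20 days, 7). In vehicle over time they ran from 3 to 9 in CHLA10 (9) and from 0 to 7 in A673 (3; 0 with only its own line, 5 with DESeq2). Unless construction shows it, the cause was not tested. Library size alone moved the median of all genes to -0.115 in A673 at 20 days and to 0.107 in TC32 minus A673. Replication-dependent genes under 1 CPM rest on few counts.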
